A study of Mus musculus with 2 samples.

Results

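The genes of oxidative phosphorylation encode the protein complexes of the mitochondrial inner membrane that oxidize NADH and succinate and make ATP. In the present data they were chosen by symbol from the platform annotation, as the genes whose symbols begin with Nduf followed by a, b, c, s or v, with Uqcr, with Cox4 to Cox8 or with Atp5, together with Sdha, Sdhb, Sdhc, Sdhd and Cyc1. No measured value entered this rule. It took 91 genes of the 18193 genes that had a probe set with a single symbol, and 180 of 45037 probe sets. By their known roles, 34 of the 91 genes encode subunits of complex I, 4 of complex II, 9 of complex III, 18 of complex IV (Ndufa4 and Ndufa4l2 among them) and 17 of complex V. The other 9 do not encode subunits of the complexes in the strict sense: Ndufaf1 to Ndufaf8 encode factors that assemble complex I, and Cox7a2l encodes a protein that joins complexes III and IV.

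The arrays compared islet grafts of normoglycemic and hyperglycemic recipients. Islets of wild-type (WT) C57BL/6 donors had been isolated with collagenase, and 50 islets were placed under the left kidney capsule of a male WT C57BL/6 recipient, which was normoglycemic, or of a male recipient heterozygous for Akita, which was hyperglycemic. Akita is a missense mutation of Ins2 that leads to loss of beta cells and to insulin deficiency. The donor islets carried no Akita allele in either group, and total RNA of the graft was taken 6 hours after transplantation and hybridized to 1 array per condition. The labels give neither the ages of these recipients nor how many mice a sample pooled. The study's methods place islet transplantation in its Akita mice in young adulthood, without naming the recipients of the arrays. The grafts are called the WT graft and the Akita graft after the recipient. The genotype of the recipient and its glycemia cannot be told apart, and without replicates no test, P-value or standard deviation between samples can be given, so that each ratio describes 2 arrays.

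In oxidative phosphorylation, complex I (NADH dehydrogenase) and complex II (succinate dehydrogenase) pass electrons to ubiquinone, complex III (cytochrome bc1) passes them on to cytochrome c, and complex IV (cytochrome c oxidase) passes them to oxygen. Complexes I, III and IV pump protons, and complex V (ATP synthase) uses the proton gradient to make ATP. In the beta cell, ATP made in this way from glucose closes a potassium channel and so triggers insulin secretion. The proximal tubule of the kidney, which lies beneath the graft, also depends on mitochondrial ATP for its transport work. All genes described here are nuclear genes. Some subunits of complexes I, III, IV and V are encoded by the mitochondrial genome instead.

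The promoters of many of these genes are known to bind the nuclear respiratory factor NRF1, the ETS factor GABP (also known as NRF2), YY1 and the estrogen-related receptors (ERR). The RefSeq table of promoters, built on GRCm38.p6, held 74 of the 91 genes, and the 71 of these that were measured on the arrays had 76 promoters of 300 bases each (250 before the start site and 50 after it). The stretches below are the 150 bases before the start site, 5′ to 3′ on the strand of the gene, with matches to the searched motifs in capitals. The first 5 are shown because no other stretch of its complex held more kinds of motif (ties were resolved by the number of matches and then by alphabet), and the last because Cox7a1 had the lowest ratio of all measured genes of the group.

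Ndufa6 (complex I, chr15:82354292-82354441, minus strand): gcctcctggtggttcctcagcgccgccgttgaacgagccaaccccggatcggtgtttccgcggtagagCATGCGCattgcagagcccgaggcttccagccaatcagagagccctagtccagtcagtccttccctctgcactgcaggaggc
Sdhb (complex II, chr4:140961121-140961270, plus strand): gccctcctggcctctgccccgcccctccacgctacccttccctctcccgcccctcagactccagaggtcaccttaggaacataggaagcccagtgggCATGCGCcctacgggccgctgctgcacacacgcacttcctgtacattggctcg
Uqcr11 (complex III, chr10:80406822-80406971, minus strand): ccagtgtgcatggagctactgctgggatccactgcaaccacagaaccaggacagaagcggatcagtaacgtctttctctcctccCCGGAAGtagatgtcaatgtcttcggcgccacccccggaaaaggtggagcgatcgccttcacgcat
Cox5b (complex IV, chr1:36691337-36691486, plus strand): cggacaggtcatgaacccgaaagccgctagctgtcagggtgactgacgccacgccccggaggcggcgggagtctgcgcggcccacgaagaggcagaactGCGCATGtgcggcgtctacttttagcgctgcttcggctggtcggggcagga
Atp5j (complex V, chr16:84834977-84835126, minus strand): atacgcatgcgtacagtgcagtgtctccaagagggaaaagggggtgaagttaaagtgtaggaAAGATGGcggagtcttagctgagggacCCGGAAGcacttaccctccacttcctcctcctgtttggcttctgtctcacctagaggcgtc
Cox7a1 (complex IV, chr7:30184021-30184170, plus strand): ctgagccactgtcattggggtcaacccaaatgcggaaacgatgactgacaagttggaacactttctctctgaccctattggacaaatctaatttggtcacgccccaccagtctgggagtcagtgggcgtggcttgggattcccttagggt

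The capitals mark an NRF1 core (CATGCGC) in Ndufa6 and Sdhb, and the same core on the opposite strand in Cox5b. They mark the GABP/ETS motif (CCGGAAG) in Uqcr11 and Atp5j, and the YY1 motif (AAGATGG) in Atp5j. None of the 4 motifs matched in the stretch shown for Cox7a1. Over the whole 300 bases and on either strand, the GABP/ETS motif was found in 19 of the 76 promoters (25%), against 8.86% of all 32851 promoters in the table and 16.7% of the 11823 promoters of other measured genes. The NRF1 core was found in 14 (18.4%), against 3.91% of all promoters and 6.37% of those of other measured genes. The YY1 motif was found in 11 (14.5%, against 6.34% and 6.83%), and the ERR motif (TCAAGGTC) in 4 (5.26%, against 1.05% and 0.770%). These shares describe letters in a window, a promoter may hold several of the motifs, and binding was not measured.

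The signals on both arrays were deposited as MAS5 intensities on a linear scale. A gene with several probe sets was represented by whichever had the highest log2 signal on average, and was regarded as measured when the mean of its 2 log2 signals reached the mean of the log2 medians of the arrays, which were 82.9 for the WT graft and 91.5 for the Akita graft. Of the 91 genes, 86 were measured, and all 86 had both signals above the medians of their arrays. Both signals of 72 genes also exceeded the 95th percentiles of the arrays (3558 and 3527). Log2 ratios are Akita graft over WT graft, so that a negative value means a lower signal in the Akita graft.

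Most signals of the oxidative phosphorylation genes differed little between the grafts, and more of them were lower than higher in the Akita graft. The median log2 ratio of the 86 measured genes was -0.10, against -0.06 over all 11421 measured genes, and the middle 50% of their ratios spanned 0.29 against 0.59. The ratio was below 0 in 58 of the 86 genes (67.4%), against 55.3% of all measured genes. Over 1.5-fold lower were 2 of the 86 genes, against 11.6% of all measured genes, and over 1.5-fold higher were 0, against 10.9%.

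Since most of these genes had high signals, they were also set beside genes of like signal. Of the 1281 genes with both signals above the 95th percentiles, 2.34% were over 1.5-fold lower in the Akita graft, 3.75% were over 1.5-fold higher, and 56.5% were lower by any amount. The 72 oxidative phosphorylation genes among them included 0 past 1.5-fold in either direction, and 50 were lower and 22 higher (median log2 ratio -0.08). The other 1209 had a median of -0.04. The middle 50% of the ratios spanned 0.26 in the 72 genes and 0.37 in the other 1209. For these 72 genes, the absence of large ratios is therefore to be read against the 2.34% and 3.75% of bright genes. The 2 genes of the group over 1.5-fold lower, Cox7a1 and Cox6a2, had signals below the 95th percentiles and were not among the 72.

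**Figure D1:**
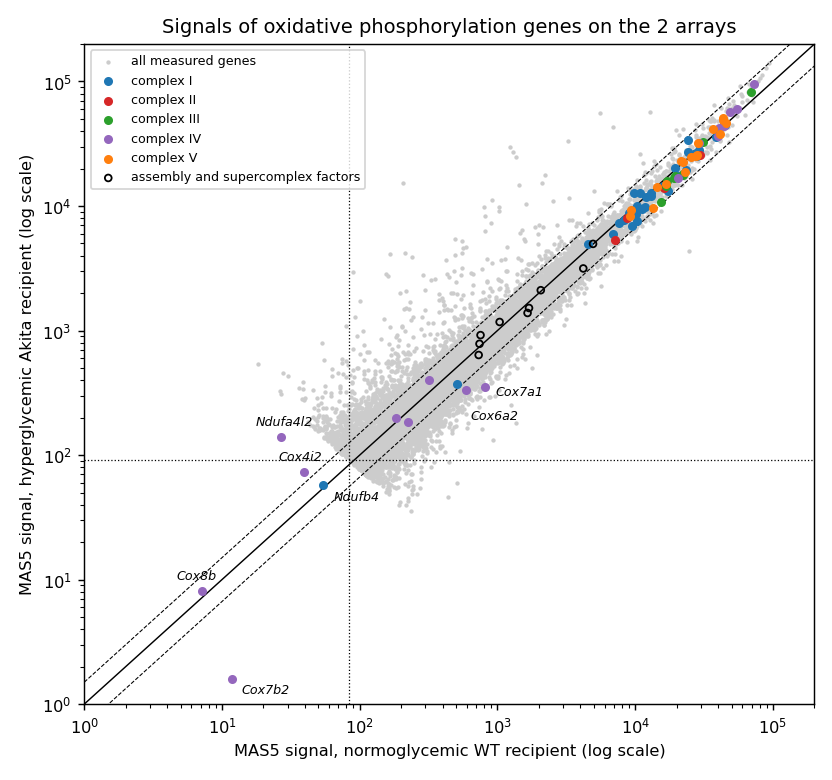
MAS5 signal of each gene in the graft of the normoglycemic WT recipient (x axis, log scale) and of the hyperglycemic Akita recipient (y axis, log scale), with 1 array per condition. Grey points are all measured genes, coloured points the oxidative phosphorylation genes by complex and open circles the assembly and supercomplex factors. The solid line marks equal signals, the dashed lines 1.5-fold and the dotted lines the array medians (82.9 and 91.5). Among the measured genes of the group, Cox7a1 and Cox6a2 lie below the lower dashed line, and the 5 genes that were not measured lie at the lower left.

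The complexes differed in their medians. Complex II had the lowest median log2 ratio (-0.21, 4 of 4 genes lower), followed by complex III (-0.19, 7 of 9 lower) and complex I (-0.11, 27 of 33 lower). Complex V had a median of -0.02 (10 of 17 lower) and complex IV a median of 0.07 (6 of 14 lower). The highest and the lowest median differed by 0.28. Genes are not replicates, so no test was made between complexes.

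The counts of lower genes depended on how the arrays were scaled. With median centring on all measured genes, 18 of 33 genes of complex I and 7 of 17 of complex V were lower (median of complex V 0.04). With quantile normalization, 12 of 14 genes of complex IV (median -0.15) and 15 of 17 of complex V (median -0.14) were lower. Complex II had 4 of 4 genes lower in both, and complex III had 7 and 9 of 9. Across the scalings, the share of lower genes among the 86 ranged from 52.3% with median centring to 83.7% with quantile normalization.

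**Figure D2:**
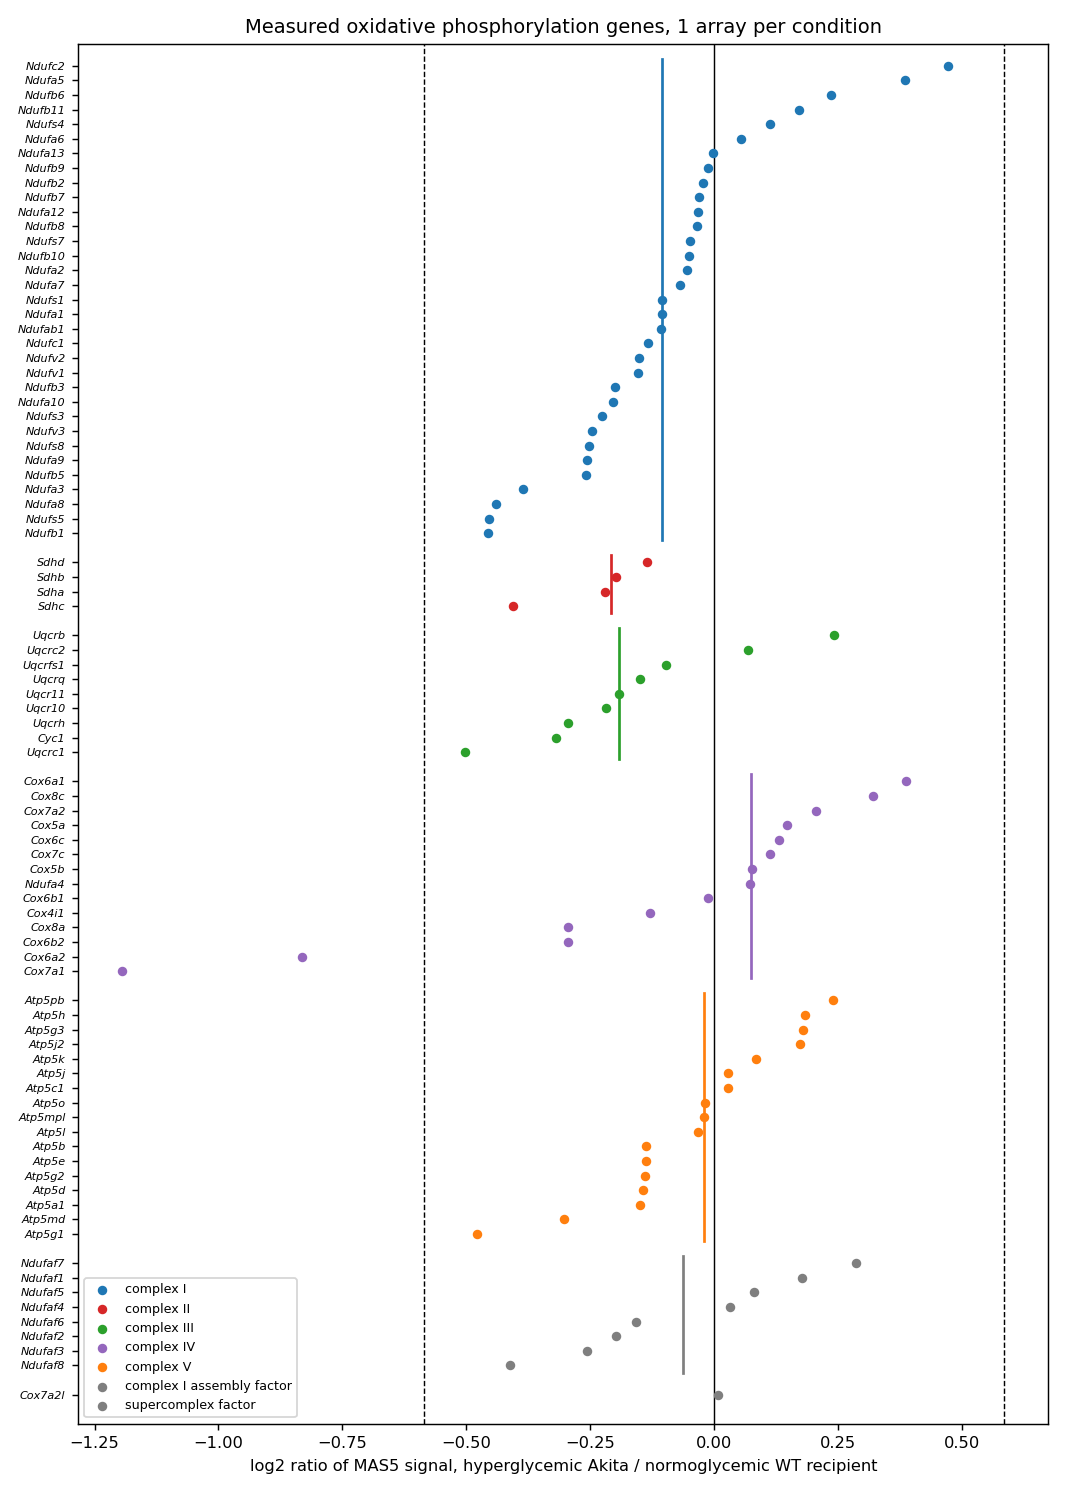
Log2 ratio of the MAS5 signals (Akita over WT recipient) of each of the 86 measured genes, ordered within its complex. The coloured vertical lines are the medians of the complexes, the black line marks equal signals and the dashed lines 1.5-fold. All 4 genes of complex II lie to the left of the black line, and 8 of the 14 genes of complex IV lie to its right.

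Complex I takes electrons from NADH. The 6 core subunits taken by the rule carry its flavin and iron-sulfur clusters or hold them in place, and all 6 were lower in the Akita graft (median log2 ratio -0.15; 5 of 6 with median centring). Ndufv1, which binds NADH and the flavin, had a signal of 16550 in the WT graft and 14880 in the Akita graft (log2 ratio -0.15). Ndufv2, which carries an iron-sulfur cluster beside it, had 15990 and 14390 (-0.15). Its other probe sets were higher in the Akita graft, with 13681 and 15224 (0.15) and with 9620 and 12795 (0.41). Ndufs1, which carries several clusters, had 8314 and 7725 (-0.11).

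The core subunits nearer to the ubiquinone site showed the same sign. Ndufs3 had signals of 10141 and 8663 (log2 ratio -0.23). Ndufs8, with clusters that hand on the electrons, had 23276 and 19536 (-0.25). Ndufs7, which carries the last cluster before ubiquinone, had 13102 and 12656 (-0.05). The largest of these differences, that of Ndufs8, amounted to 1.19-fold.

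The 27 measured accessory subunits of complex I had a median log2 ratio of -0.06, with 21 lower and 6 higher, but with 13 lower and 14 higher after median centring. The lowest ratios were those of Ndufb1, a small subunit of the membrane arm, with signals of 506 and 369 (-0.46), and of Ndufs5, with 9463 and 6909 (-0.45). The transcript that the annotation gives for the probe set of Ndufs5 is a non-coding record, so that the gene behind this value is uncertain. A probe set that carries its symbol together with that of Ndufs5-ps had 7659 and 7008 (-0.13). Ndufa8 followed with 10284 and 7574 (-0.44) and Ndufa3 with 17376 and 13298 (-0.39). Another probe set of Ndufa3 had 13013 and 11780 (-0.14). On the probe sets used, the signals of these genes were 1.31-fold to 1.37-fold lower in the Akita graft.

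A few accessory subunits were higher. Ndufc2, a subunit of the membrane arm, had signals of 24228 in the WT graft and 33593 in the Akita graft (log2 ratio 0.47), and Ndufa5, which lies near the ubiquinone end of the peripheral arm, had 9805 and 12801 (0.38). Ndufb6 (0.24), Ndufb11 (0.17), Ndufs4 (0.11) and Ndufa6 (0.05) were the other 4. By position in the complex, the electron input module had a median of -0.07 (7 of 9 lower), the ubiquinone-binding module -0.14 (3 of 4 lower) and the membrane arm -0.08 (15 of 18 lower). All these medians were within 0.10 of that of all measured genes.

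The factors that assemble complex I without staying in it were evenly divided, with 4 lower and 4 higher (median log2 ratio -0.06). Ndufaf8 was the lowest, with 4196 in the WT graft and 3152 in the Akita graft (-0.41), and Ndufaf7, a methyltransferase, the highest, with 753 and 919 (0.29). The second probe set of Ndufaf8 had 375 and 422, on the other side of 0. Cox7a2l, the factor that joins complexes III and IV, had 4939 and 4964 (0.01).

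Complex II oxidizes succinate and is the only complex that also takes part in the tricarboxylic acid cycle, and all its subunits are nuclear. Sdha, which carries the flavin, had a signal of 16224 in the WT graft and 13921 in the Akita graft (log2 ratio -0.22). Sdhb, the iron-sulfur subunit, had 29453 and 25689 (-0.20). Of the membrane anchors, Sdhc had 7113 and 5367 (-0.41) and Sdhd had 8725 and 7945 (-0.14). All 4 were thus lower in the Akita graft, by 1.10-fold to 1.33-fold. A second measured probe set of Sdhd lay on the other side of 0 (0.30).

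Complex III had the lowest single ratio outside complex IV. Uqcrc1, a core protein of the matrix side, had signals of 15369 and 10854 (log2 ratio -0.50), which was 1.42-fold lower in the Akita graft. Cyc1, the cytochrome c1 that hands electrons to cytochrome c, had 22145 and 17747 (-0.32). Uqcrh, the hinge protein beside it, had 22376 and 18226 (-0.30), but 13506 and 13368 (-0.01) on its second probe set. Uqcrfs1, the Rieske iron-sulfur protein, had 16947 and 15836 (-0.10).

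Uqcrc2, the partner of Uqcrc1, had 30999 in the WT graft and 32501 in the Akita graft (log2 ratio 0.07), and its second probe set had 23828 and 21692 (-0.14). Uqcrb, a small subunit near a ubiquinone site, was the highest of complex III, with 69571 and 82252 (0.24). A second probe set of Uqcrb had 10730 and 7975 (-0.43), so that the probe sets of both Uqcrc2 and Uqcrb lay on opposite sides of 0. The small subunits Uqcr10, Uqcr11 and Uqcrq ranged from -0.22 to -0.15.

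Complex IV reduces oxygen. Its catalytic subunits are mitochondrially encoded, and the nuclear subunits surround them. Of the 10 measured subunits that are not tissue isoforms, 7 were higher in the Akita graft and 3 lower (median log2 ratio 0.09), but 9 were lower with quantile normalization (-0.12) and 6 with centring on beta cell markers (-0.04). Cox6a1, the isoform of most tissues, had signals of 72662 in the WT graft and 95041 in the Akita graft (0.39), and Cox7a2, also the isoform of most tissues, had 48912 and 56348 (0.20). Cox8a, a small subunit of the membrane part, was the lowest of the 10, with 20555 and 16763 (-0.29). The value of Cox6a1 is not settled by the array, since its second probe set had 22279 and 20508 (-0.12).

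The other subunits of complex IV lay between. Cox4i1 had 39721 and 36321 (log2 ratio -0.13), Cox5a had 28831 and 31897 (0.15), Cox5b had 43926 and 46317 (0.08), and Cox6b1 had 44405 and 44038 (-0.01). Ndufa4, first described in complex I and now counted with complex IV, had 40563 and 42654 (0.07). Cox6c had 54444 and 59625 (0.13). Cox7c was represented by probe sets of low signal only, the higher with 185 and 200 (0.11).

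Of the 86 measured genes, those past 1.5-fold were Cox7a1 and Cox6a2, which encode heart and skeletal muscle isoforms of complex IV subunits. Cox7a1 had a signal of 811 in the WT graft and 354 in the Akita graft (log2 ratio -1.19), 2.29-fold lower. Cox6a2 had 595 and 334 (-0.83), 1.78-fold lower, while its second probe set had 182 and 154 (-0.24). The ratio of Cox7a1 rested on a single probe set.

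Their partner isoforms, Cox7a2 and Cox6a1, did not pass 1.5-fold, and the probe sets of Cox6a1 lay on both sides of 0. Markers of heart and skeletal muscle were mostly not measured: 1 of 12 (Tnni2, 112 and 93.4) reached the limit, and Ckm, Actn2 and Mb were below the array medians in both grafts, with signals of 11.4 to 55.9. Acta1 and Myl2 were above the median in the Akita graft alone (103 each). The summed signal of the 12 was 476 in the WT graft and 569 in the Akita graft. It came mostly from genes that were not measured, so that it does not show a change in muscle content.

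Of the isoforms known from testis, Cox6b2 had 225 and 183 (log2 ratio -0.30) and Cox8c 319 and 399 (0.32), and Cox7b2 (11.8 and 1.58) was below the array medians in both grafts. The muscle isoform Cox8b (7.16 and 8.15) and Cox4i2, an isoform known from lung (39.3 and 72.8), were likewise below both medians, and no fold is given for these 3 genes. Ndufb4 of complex I was also below both medians (54.2 and 57.4) on its own probe set. The 2 probe sets that carry its symbol together with those of its copies Ndufb4b and Ndufb4c had high signals (23378 and 22416, and 15953 and 17889), so the low value does not describe the level of the gene.

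Ndufa4l2, a relative of Ndufa4 known to be induced in hypoxia, was the only gene with signals on both sides of the medians, with 26.8 in the WT graft and 140 in the Akita graft. Against a floor at the higher of the array medians, 91.5, it was at least 1.53-fold higher in the Akita graft. This value came from 1 probe set of low signal, and the gene did not count as measured.

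Complex V makes ATP. Its catalytic head was slightly lower in the Akita graft, with 4 of 5 subunits of the head and central stalk below 0 (median log2 ratio -0.14). Atp5b, the beta subunit with the catalytic sites, had signals of 41337 and 37595 (-0.14), and Atp5a1, the alpha subunit, had 27705 and 24988 (-0.15). The rotating gamma subunit Atp5c1 had 45363 and 46243 (0.03).

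The peripheral stalk, which holds the head still, had 3 of 4 subunits above 0 (median log2 ratio 0.11), with none past 1.5-fold. Its median was below 0 with quantile normalization (-0.03) and with centring on beta cell markers (-0.02). The median of the stalk was also below 0 (-0.02) when probe sets named _s_at, _x_at or _a_at were left out wherever the gene had another. Its subunit b, Atp5pb, was the highest of complex V, with 43013 in the WT graft and 50773 in the Akita graft (0.24). The second probe set of Atp5pb had 19937 and 19763 (-0.01). Atp5h had 36691 and 41664 (0.18) on the probe set used and 18569 and 16596 (-0.16) on the other. Atp5j was at 0.03 and Atp5o at -0.02. The sign of the stalk thus depended on the choice of probe set.

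The membrane ring that carries protons is built from 1 protein, subunit c, which is encoded by 3 genes that differ in the part cleaved off on import. Atp5g1 had signals of 13347 and 9578 (log2 ratio -0.48), the lowest of complex V, and Atp5g2 had 9096 and 8251 (-0.14). Atp5g3 had 43636 and 49367 (0.18). Atp5md, a small membrane subunit, was the second lowest of complex V with 23115 and 18737 (-0.30).

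With no replicate arrays, the only spread in the data was that between probe sets of the same gene, which lie on the same 2 arrays. In 46 genes of the group at least 2 probe sets were measured, 114 in all, and the pooled standard deviation of their log2 ratios was 0.30 (1.23-fold), against 0.46 over all genes. Among probe sets with both signals above the 95th percentiles it was 0.18 (1.13-fold) for 36 genes of the group and 0.19 for all genes. All probe sets were lower in 17 of the 46 genes, all were higher in 9, and 20 had probe sets in both directions. The log2 ratio lay within 1 such standard deviation (0.30) of 0 in 71 of the 86 measured genes and, with the standard deviation of bright probe sets (0.18), in 43 of the 72 bright genes, and none of this spread covers differences between mice.

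Of the 154 measured probe sets, 3 were over 1.5-fold lower and 7 over 1.5-fold higher, against 11.7% and 12% of all 19184 measured probe sets with 1 symbol. Among genes with both signals above the 95th percentiles, these shares were 2.34% and 3.75%. Probe sets other than those used passed 1.5-fold in Ndufa5 (6469 and 10211, log2 ratio 0.66), Ndufc2 (8281 and 12723, 0.62) and Cox6c (12132 and 19449, 0.68), each in the direction of the probe set used. The others had low signals. Ndufs8 had 5 of 6 probe sets lower (-0.36 to -0.14) and a sixth of low signal higher (294 and 527, 0.84). Ndufab1, the acyl carrier protein, had the widest range, 1.64, with -0.11, 0.48 and, at signals of 156 and 69.6, -1.17. Of the core subunits, Ndufv2 had probe sets at -0.15, 0.15 and 0.41.

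**Figure D3:**
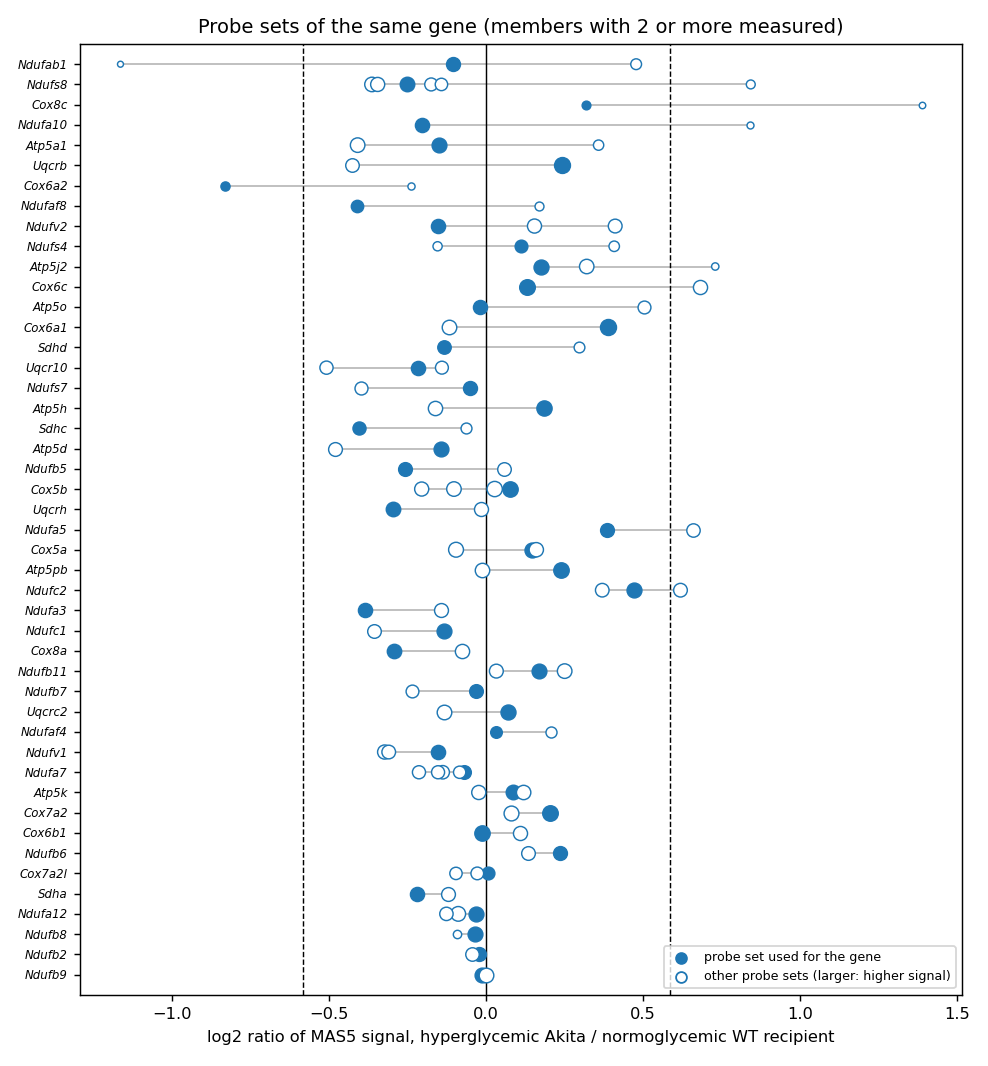
Log2 ratio of the MAS5 signals (Akita over WT recipient) of each measured probe set in the 46 genes with 2 or more, ordered by the range within the gene. Filled points are the probe sets used for the gene and open points the others, larger points have higher signals, and the dashed lines mark 1.5-fold. The range stays within 1.5-fold in 39 of the 46 genes, and most points outside the dashed lines are small, that is, of low signal.

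The ratios also varied with the signal itself. Across the 86 measured genes, the log2 ratio correlated with the mean log2 signal (Pearson's r 0.32, Spearman's rho 0.37). These are genes on the same 2 arrays and not independent replicates, so no P-value is given. At a geometric mean signal of 4096 to 16384, 29 of 33 genes of the group were lower (median -0.14, against -0.05 for 953 other genes). At 16384 to 32768, 16 of 24 were lower (median -0.08, against -0.02 for 142 other genes).

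At 32768 to 131072 the sign turned, with 10 of 15 genes of the group higher (median 0.08), and 56 of 70 other genes were higher as well (median 0.28). The complexes were not spread evenly over this range: the median signal in the WT graft was 12474 for complex II, 12907 for complex I and 34276 for complex IV. The part of signal strength in the difference between the complexes was not tested. In each of the 3 ranges the median of the group was below that of the other genes, with the difference ranging from -0.20 to -0.07.

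Other genes of mitochondrial energy metabolism were compared in the same way. Assembly factors with other names had a median log2 ratio of -0.21, with 26 of 35 lower. Tmem126b (complex I, 216 and 100), Sdhaf1 (complex II, 1877 and 945), Uqcc1 (complex III, 915 and 554) and Ecsit (complex I, 1533 and 968) were over 1.5-fold lower in the Akita graft, and Bcs1l, which inserts the Rieske protein into complex III, was 1.55-fold higher (474 and 733). These 4 of 35 lower genes are a share like the 11.6% of all measured genes. The tricarboxylic acid cycle had a median of -0.24, with 12 of 16 lower, and Ogdh, a subunit of alpha-ketoglutarate dehydrogenase, was 1.78-fold lower (2708 and 1524).

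The mobile electron carrier did not follow the complexes. Cycs, cytochrome c, had signals of 57710 in the WT graft and 92632 in the Akita graft, 1.61-fold higher. The only mitochondrially encoded subunit that could be named on the array, ND5 of complex I, was 1.52-fold higher (93401 and 141584). Other genes with geometric mean signals of 32768 to 131072, a range that holds both, had a median log2 ratio of 0.28, against 0.68 for Cycs and 0.60 for ND5, and the part of signal strength was not tested. None of 11 genes of coenzyme Q synthesis (median -0.14) and none of 7 carriers of the inner membrane (median -0.13) passed 1.5-fold. Of all measured genes, 11.6% were over 1.5-fold lower and 10.9% over 1.5-fold higher. In lists this short, the absence of large ratios therefore says little.

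Among 12 regulators of mitochondrial biogenesis the median log2 ratio was 0.07, with 5 lower and 7 higher. The coactivator Ppargc1b had 1294 and 838, 1.54-fold lower, and the related coactivator Pprc1 had 252 and 415, 1.65-fold higher. The factors of the motifs searched above were all within 1.5-fold, in both directions: Nrf1 had 161 and 208, Gabpa had 976 and 1293, Gabpb1 had 143 and 190, Yy1 had 2220 and 3234, and Esrra had 1811 and 1361. The coactivator Ppargc1a had 1518 and 1128. In glycolysis, the cytosolic pathway that supplies pyruvate, 10 of 14 genes were lower (median -0.11). Pfkm, the muscle phosphofructokinase, was 1.85-fold lower (795 and 429), and Pfkfb3, which makes an activator of phosphofructokinase, was 2.35-fold higher (202 and 475).

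The grafts differed in markers of the cells they may hold, and in bulk tissue fewer cells of a type and less RNA per cell cannot be told apart. All 19 measured macrophage and monocyte markers of 20 were over 1.5-fold higher in the Akita graft, and their summed signal was 16578 in the WT graft and 124184 in the Akita graft. The summed signal of beta cell markers was 139914 and 185764 (11 measured, 5 lower, median log2 ratio 0.13), to which Ins2 (68738 and 88302) and Iapp (47116 and 74018) gave most. The summed signal of proximal tubule markers was 554260 and 615934 (18 measured, 9 lower, median 0.03). Markers of other nephron segments (11 of 12 lower, summed signal 59927 and 45650) and of endothelium (11 of 11 lower, 6725 and 4657) were lower. Exocrine markers had 18535 and 15252, with 3 of 9 measured, and Cela1 alone gave 18162 and 14624.5. The exocrine markers that were not measured were below the array medians in both grafts. The part of these differences in the ratios of the oxidative phosphorylation genes was not tested.

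**Figure D4:**
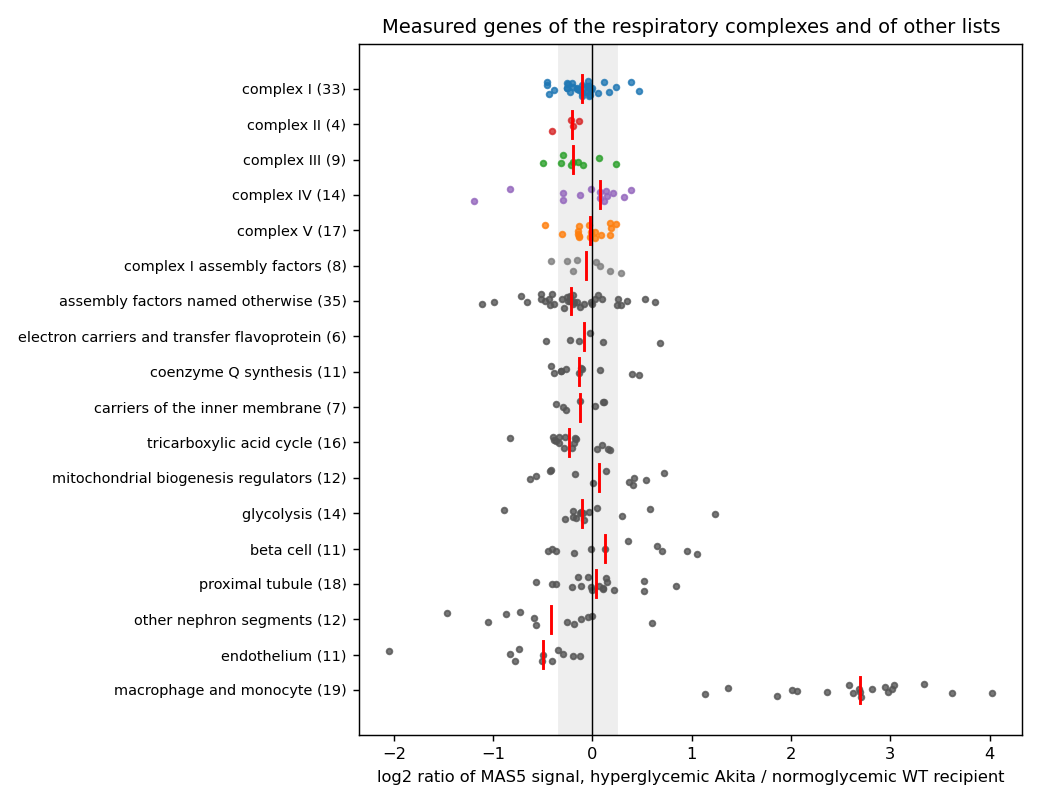
Log2 ratio of the MAS5 signals (Akita over WT recipient) of the measured genes of each complex and of other gene lists, with the number of genes in parentheses. Points are genes, red bars are medians and the grey band holds the middle 50% of all measured genes. The medians of the 5 complexes lie within the grey band, and the 19 macrophage and monocyte markers all lie far to its right (median 2.69).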

How the data were processed

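Total RNA of 2 islet grafts was measured on 1 MOE430 2.0 array each. The authors deposited MAS5 signal intensities on a linear scale; its settings and version were not given in the sources used here. With 2% of probe sets trimmed at either end, the mean was 500.0 on both arrays, so no further scaling was applied. The 3′/5′ signal ratio of Actb was 3.54 in the WT graft and 3.99 in the Akita graft, and that of Gapdh 1.30 and 1.76.

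Gene symbols came from the platform annotation of the probe sets (34945 with 1 symbol, 932 with several, 9160 with none), and 10 with several symbols, at least 1 of them matching the rule, were left out. All 91 genes were found in RefSeq. Genes and lists were chosen with earlier results of these data known. Every gene of the group could be named; values in full were given for core and catalytic subunits, isoform families, the 2 lowest and highest ratios of each complex, genes past 1.5-fold or not measured and, from other lists, up to 3 genes past 1.5-fold. Ecsit, Bcs1l, Ppargc1a, Ins2, Iapp, Cela1 and the factors of the motifs were added after their values were seen, as were the modules of complexes I and V. The number of arrays limits the precision. Other scalings, filters, floors and choices of probe set were tried as alternatives. Scripts (Python 3.11.15, numpy 2.4.6, pandas 2.3.3, statsmodels 0.14.6, matplotlib 3.10.9) were tested on simulated data.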

Additional observations from a re-analysis of the deposited data

How the results depend on the processing

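The results were recomputed under 15 other settings, with 2-fold in place of 1.5-fold as a further one for the counts; the 95th percentile filter was chosen after seeing the data. Complexes II and III had the lowest medians and complex I the third in every setting. Centring shifts every ratio alike and cannot change this order, and the filters left the same genes in complexes II, III and V. With the median of all probe sets, complex III was below complex II. Quantile normalization put complex IV below complex V. Centring on beta cell markers, which lowers every ratio by 0.13, gave medians of -0.23 for all measured genes of the group, -0.24 for complex I, -0.34 for II, -0.32 for III, -0.0555 for IV and -0.15 for V, and 5 genes over 1.5-fold lower (Uqcrc1, Atp5g1 and Ndufb1 besides Cox7a1 and Cox6a2). Quantile normalization gave -0.15 for complex IV and -0.14 for V. The share of lower genes, 67.4% in the report, was 52.3% with median centring, 72.1% with centring on proximal tubule markers, 73.3% with loess correction, 81.4% with centring on beta cell markers and 83.7% with quantile normalization, so the sign of small ratios depends on the scaling. The count over 1.5-fold lower, 2 in the report, was 0 with filters at the 75th and at the 95th percentile, 1 (Cox7a1) with a limit of 2-fold and 1 with the median of all probe sets. The count higher, 0 in the report, was 1 when 1 signal above the median sufficed (Ndufa4l2) and 2 without a filter (Cox4i2 and Ndufa4l2). It was 2 (Ndufa5 and Ndufc2) when probe sets named _s_at, _x_at or _a_at were left out wherever the gene had another. With the median of all probe sets it was 3 (Atp5g1, Cox7c and Cox8c). This setting takes in probe sets that were not measured, namely for Atp5g1 (3.73 and 13.8) and for Cox7c (6.09 and 14.3). The second probe set of Cox8c was measured (78.6 and 206). Other medians moved by no more than 0.1, but some turned sign. That of complex IV, 0.07 in the report, was -0.02 with loess correction and -0.01 with the _s_at, _x_at and _a_at probe sets left out in that way. That of complex V, -0.02 in the report, was 0.04 with median centring. No paired analysis was possible because each condition had 1 array, and for the same reason no replicate could be left out. Low signals limit the isoforms of complex IV most.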
